A study of Mus musculus with 26 samples.

Results

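App, its paralogues Aplp1 and Aplp2, and the genes of the enzymes that cut the amyloid precursor protein or break down the peptide released from it were measured in mouse entorhinal cortex and hippocampus. The members were 9 of 18193 genes on the array, App, Aplp1, Aplp2, Bace1, Psen2, Ncstn, Adam10, Ide and Mme, taken as every probe set that the platform annotation gives 1 of these symbols and no other. This gave 30 of the 45037 probe sets tested, with 5 each for Aplp2 and Ide, 4 each for App, Bace1 and Adam10, and 2 each for Aplp1, Psen2, Ncstn and Mme.

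The study compared aged mice that carry an APP transgene with non-transgenic mice, sampled 4 weeks after a lentivirus had been placed in the entorhinal cortex or, in 1 group, after a sham lesion. In each region, 4 arrays came from transgenic mice whose virus carried BDNF (brain-derived neurotrophic factor, a growth factor that neurons secrete), 4 from transgenic mice given virus encoding green fluorescent protein (GFP), 2 from non-transgenic mice given the GFP virus and 3 from non-transgenic mice with a sham lesion. There were thus 26 arrays in 8 groups, and no transgenic group without virus and no non-transgenic group with BDNF was analysed here. The labels describe the mice as aged without a number. No source used here gives the strain, the form or promoter of the APP transgene, or the promoter of the viruses, which limits what the groups model. They call the replicates biological and do not tie a cortical array to a hippocampal array of 1 animal. All values are log2 expression values on the scale of robust multi-array averaging (RMA), so a difference of 1 is a doubling.

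The amyloid precursor protein is a membrane protein of neurons and other cells. Cleavage by BACE1 followed by γ-secretase releases the amyloid-β peptide, whereas cleavage by ADAM10, the main α-secretase of neurons, falls within the peptide and prevents its release. γ-Secretase is a complex built around a catalytic presenilin such as PSEN2, with nicastrin (Ncstn) and smaller subunits. Insulin-degrading enzyme (Ide) and neprilysin (Mme) are among the proteases that degrade amyloid-β.

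For orientation, the 250 bases before the RefSeq transcription start (GRCm38.p6) are shown for App and Aplp1, related genes whose brightest probe sets read in opposite directions between the regions, and for Ide, whose probe sets disagreed most. All are on the minus strand and run 5′ to 3′, and capitals mark the GC box core GGGCGG, searched on both strands. The windows are chr16:85173708-85173957 for App, chr7:30445583-30445832 for Aplp1 and chr19:37334545-37334794 for Ide.
App: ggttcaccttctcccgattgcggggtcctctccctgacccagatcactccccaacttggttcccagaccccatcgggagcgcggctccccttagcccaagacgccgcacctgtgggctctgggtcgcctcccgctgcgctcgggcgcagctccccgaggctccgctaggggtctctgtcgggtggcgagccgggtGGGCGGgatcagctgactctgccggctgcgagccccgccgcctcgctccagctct
Aplp1: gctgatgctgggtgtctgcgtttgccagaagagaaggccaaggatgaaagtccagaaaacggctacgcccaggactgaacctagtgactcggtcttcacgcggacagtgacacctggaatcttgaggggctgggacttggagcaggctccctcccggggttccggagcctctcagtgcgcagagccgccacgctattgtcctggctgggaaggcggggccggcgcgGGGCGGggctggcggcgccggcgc
Ide: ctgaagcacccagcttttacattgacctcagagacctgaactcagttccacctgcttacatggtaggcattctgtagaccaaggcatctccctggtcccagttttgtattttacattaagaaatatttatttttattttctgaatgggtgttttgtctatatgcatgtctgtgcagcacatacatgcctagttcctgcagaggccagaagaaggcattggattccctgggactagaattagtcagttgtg
App and Aplp1 each held 1 match and Ide none, and 32.7% of all 32851 windows of this length held at least 1 on either strand. The GC content was 70.8% for App, 66.0% for Aplp1 and 42.8% for Ide, against a median of 52.4% over all windows. None of these 3 windows held TATAAA on either strand, which 12.4% of all windows did. The RefSeq table had an entry for 8 of the 9 genes. These matches are a description of the letters only.

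Several facts of the arrays bear on what follows. Thy1, a neuronal surface protein, separated the genotypes on every array: it lay at 13.53 to 13.80 in transgenic and 12.30 to 12.46 in non-transgenic entorhinal cortex, and at 13.84 to 13.99 and 12.56 to 12.67 in hippocampus. Xist was high on all non-transgenic arrays (10.38 to 10.89) and ran from 5.38 to 11.01 on transgenic arrays, so sex was mixed in the transgenic groups only. The mean of 7 markers of dentate granule and hippocampal cells was 5.66 to 6.13 in entorhinal cortex and 8.32 to 9.03 in hippocampus. That of 5 markers of cortical cells was 9.44 to 9.63 and 8.93 to 9.23, so on average both dissections carried the markers of their labelled region. Of the 7, 6 were called lower and 1 higher in entorhinal cortex in both genotypes. Of the 5, 3 were called higher and 1 lower in non-transgenic mice, and 4 higher and 0 lower in transgenic mice. One hippocampal sham array held choroid plexus transcripts (mean of 5 markers 9.36, against at most 6.31 on the other hippocampal sham arrays). In bulk tissue, fewer cells of a type and less RNA per cell cannot be told apart.

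App was the first gene examined, since its transgene defines the groups. For its brightest probe set, 1427442_a_at, no genotype difference beyond the error was detected in either region. In entorhinal cortex its values were 13.26, 13.25, 13.36 and 13.30 with BDNF, 13.32, 13.32, 13.25 and 13.25 with GFP in transgenic mice, 13.27 and 13.34 with GFP in non-transgenic mice, and 13.29, 13.26 and 13.33 in sham mice. In hippocampus they were 13.19, 13.25, 13.16 and 13.14 with BDNF, 13.03, 13.16, 13.17 and 13.24 with GFP in transgenic mice, 13.17 and 13.23 with GFP in non-transgenic mice, and 13.11, 13.20 and 13.12 in sham mice. The groups of a region overlapped throughout, and the single lowest array was transgenic GFP array 1 of the hippocampus. Transgenic minus non-transgenic was -0.01 ± 0.05 (standard error, 95% interval -0.12 to 0.10, 8 against 5 arrays, limma adjusted p = 0.972) in entorhinal cortex and 0.00 ± 0.05 (-0.10 to 0.11, adjusted p = 0.999) in hippocampus. No source used here says whether these probes also bind the transgene's transcript, so they may or may not include it. The second bright App probe set, 1420621_a_at, ran from 11.88 to 12.46 over all arrays, and the remaining 2, 1438373_at and 1438374_x_at, were among the dimmest on the array with means of 2.99 and 3.01.

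**Figure D1:**
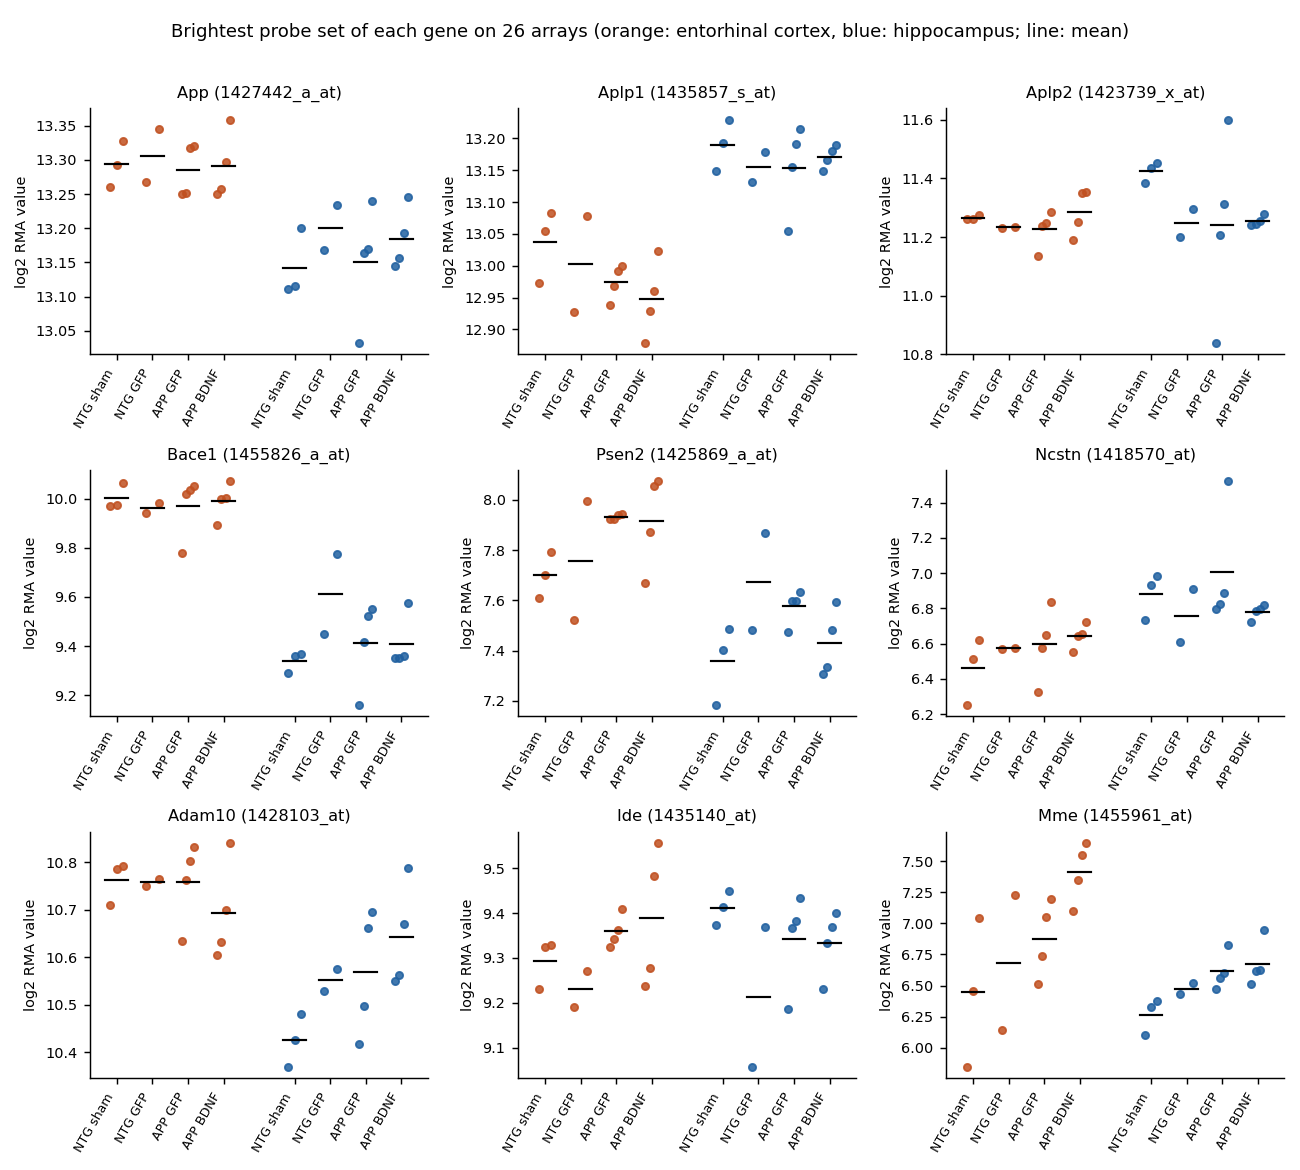
Log2 RMA value (vertical axis, own scale in each panel) of the brightest probe set of each of the 9 genes by region and group; each point is 1 array and each line a group mean. App and Bace1 lie higher on all cortical than on all hippocampal arrays and Aplp1 lies lower in cortex (12.88 to 13.08) than in hippocampus (13.05 to 13.23) apart from a narrow overlap, while the groups within a region overlap for most genes.

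BDNF was compared with GFP in transgenic mice to ask whether the growth factor moves transcripts of the amyloid pathway. No member did so by the test used: 0 of 30 probe sets had an adjusted p under 0.05 in either region (limma, Benjamini-Hochberg over all probe sets), against a background of 0% of all probe sets called in entorhinal cortex and 0% in hippocampus. At an unadjusted p under 0.05 the members again numbered 0 in both regions, against 4.56% and 4.69% of all probe sets, and 0 of 30 had arrays that did not overlap, against 2.32% and 2.63%. The median absolute difference of the 30 member probe sets was 0.05 in entorhinal cortex and 0.06 in hippocampus, against 0.08 and 0.06 over all probe sets.

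The estimates in this paragraph are those of the brightest probe set of each gene unless another is named. For the precursor and for BACE1 they were near 0. BDNF minus GFP for App was 0.0061 ± 0.06 (95% interval -0.13 to 0.14) in entorhinal cortex and 0.03 ± 0.06 (-0.10 to 0.17) in hippocampus. For Bace1, the β-secretase, it was 0.02 ± 0.08 (-0.15 to 0.19) and -0.0037 ± 0.10 (-0.21 to 0.21). None of these 4 intervals reaches beyond 0.21 on the log2 scale in either direction. That bound does not hold for every probe set of these genes. In entorhinal cortex Bace1 1450384_at stood at 0.11 ± 0.08 (-0.05 to 0.27), 1421824_at at -0.03 ± 0.07 and 1421825_at at -0.04 ± 0.08. App 1420621_a_at stood at -0.05 ± 0.08 (-0.22 to 0.12) there. Adam10, the α-secretase, stood at -0.06 ± 0.07 in entorhinal cortex and 0.07 ± 0.08 in hippocampus. Within γ-secretase, the estimates were less precise. Psen2 stood at -0.02 ± 0.11 (-0.26 to 0.22) and -0.15 ± 0.10 (-0.36 to 0.07), and Ncstn at 0.05 ± 0.11 (-0.19 to 0.28) and -0.23 ± 0.14 (-0.52 to 0.07). For Ncstn in hippocampus, 1 control array stood high, transgenic GFP array 3 at 7.52, with the other GFP arrays at 6.80, 6.83 and 6.89 and the BDNF arrays at 6.73 to 6.82.

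Mme, which encodes neprilysin, had the largest estimate. In entorhinal cortex its brightest probe set, 1455961_at, read 7.10, 7.64, 7.35 and 7.55 with BDNF and 7.20, 7.05, 6.74 and 6.51 with GFP. The groups overlapped, since the highest GFP array lay above the lowest BDNF array. The difference was 0.54 ± 0.27 (95% interval -0.04 to 1.12) with an unadjusted limma p of 0.0676 and an adjusted p of 0.997. In hippocampus the BDNF arrays read 6.62, 6.95, 6.62 and 6.51 and the GFP arrays 6.82, 6.56, 6.60 and 6.47, a difference of 0.06 ± 0.10. The difference between the regions in the BDNF effect was 0.48 ± 0.30 for Mme (adjusted p = 1), and 0 of the 30 probe sets were called in that comparison (limma), with 0% of all probe sets called. At an unadjusted p under 0.05 there were again 0 members, against 4.09% of all probe sets.

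The genotypes were next compared over all arrays of a region, 8 transgenic against 5 non-transgenic. Again 0 of 30 member probe sets were called in either region (limma), against 0.0178% of all probe sets in entorhinal cortex and 0.0266% in hippocampus. At an unadjusted p under 0.05 there were 4 in entorhinal cortex (13.3%, background 8.01%), namely Psen2, Mme and 2 probe sets of Ide, and 1 in hippocampus (3.33%, background 5.12%), namely Mme. No member's arrays separated the genotypes completely, against 0.389% and 0.151% of all probe sets. With GFP arrays alone, 4 against 2, 0 of 30 were called in both regions against 0.00444% of all probe sets in each, and 1 and 0 had an unadjusted p under 0.05 (background 2.57% and 4.16%). The arrays of 3 probe sets in entorhinal cortex (10%) and 1 in hippocampus (3.33%) did not overlap there, against 10.9% and 9.04%. A moderated F test over the 4 groups of a region called 0 of 30 in both (limma, background 0.0155% and 0.04%), and 1 and 3 had an unadjusted p under 0.05 (background 4.95% and 6.65%).

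Mme was the only member below an unadjusted p of 0.05 in both regions, with the transgenic arrays higher. In entorhinal cortex transgenic arrays ran from 6.51 over a median of 7.15 to 7.64, and the 5 non-transgenic arrays read 7.23 and 6.14 with GFP and 6.46, 5.85 and 7.05 with sham. The difference was 0.60 ± 0.22 (95% interval 0.13 to 1.07, limma adjusted p = 0.598). In hippocampus transgenic arrays ran from 6.47 over a median of 6.61 to 6.95, and the non-transgenic arrays read 6.52 and 6.43 with GFP and 6.37, 6.32 and 6.10 with sham. The difference there was 0.30 ± 0.08 (0.12 to 0.48, limma adjusted p = 0.699). These sides mix treatments, since the transgenic side holds BDNF arrays and the non-transgenic side sham arrays. With GFP arrays alone the difference of Mme was smaller, at 0.19 ± 0.33 in entorhinal cortex and 0.14 ± 0.13 in hippocampus (limma adjusted p = 1 in both). Genotypes overlapped in both regions, and neither difference passed the adjusted threshold. The group means of Mme followed the same order in both regions, lowest in sham and then non-transgenic GFP, transgenic GFP and transgenic BDNF. Neighbours in that order overlapped within each region except hippocampal sham (6.10 to 6.37) and hippocampal non-transgenic GFP (6.43 to 6.52), and none of these neighbouring pairs was called. The second Mme probe set, 1422975_at, was dim (3.52 to 4.13 over all arrays).

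Psen2, a catalytic presenilin, read 7.67 to 8.07 on transgenic and 7.52 to 7.99 on non-transgenic cortical arrays. Transgenic minus non-transgenic was 0.20 ± 0.09 in entorhinal cortex (95% interval 0.01 to 0.40, limma adjusted p = 0.617) and 0.02 ± 0.08 in hippocampus. Over the 13 cortical arrays Psen2 correlated with the oligodendrocyte list at 0.80, and over the 13 hippocampal arrays at -0.12. The cortical value was the highest of many such correlations between members and marker lists. It is a description over arrays that share groups, and the part of those cells was not tested. The 2 Ide probe sets pointed in opposite directions, 1423121_at at 0.18 ± 0.07 and 1441860_x_at at -0.24 ± 0.11 in entorhinal cortex. The genotype differences that follow are of brightest probe sets, in entorhinal cortex and then hippocampus, and none was called. They were -0.01 ± 0.06 and -0.04 ± 0.08 for Bace1, 0.11 ± 0.09 and 0.06 ± 0.11 for Ncstn, and -0.03 ± 0.06 and 0.13 ± 0.06 for Adam10. For Aplp1 they were -0.06 ± 0.05 and -0.01 ± 0.05, and for Aplp2 0.00 ± 0.05 and -0.11 ± 0.10.

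**Figure D2:**
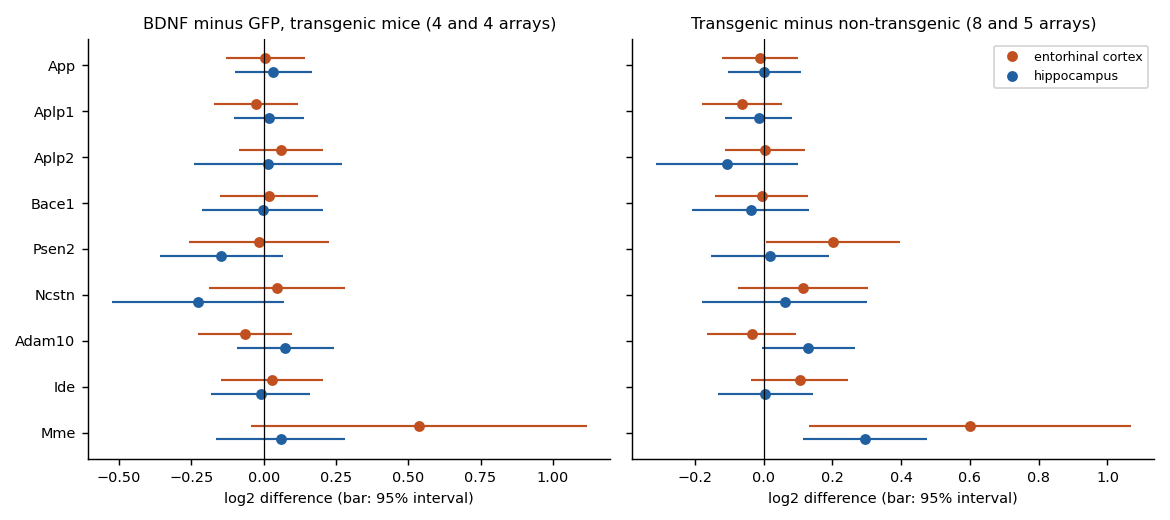
Log2 difference (horizontal axis, bars 95% intervals) of the brightest probe set of each gene for BDNF minus GFP in transgenic mice (left) and transgenic minus non-transgenic mice (right), in entorhinal cortex (orange) and hippocampus (blue). Most points lie within 0.15 of 0 and their intervals include 0; Mme lies farthest to the right, at 0.54 and 0.60 in entorhinal cortex, and no adjusted p is under 0.05.

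GFP virus was next compared with sham lesion in non-transgenic mice, with 2 against 3 arrays. No group without a procedure was available, so the effect of the procedure itself was not measured. Of the 30 member probe sets 0 were called in entorhinal cortex (limma, background 0.00444%) and 0 in hippocampus (background 0.0244%). In hippocampus 6 had an unadjusted p under 0.05 (20%, background 8.64%) and the arrays of 16 did not overlap (53.3%, background 27.1%). Immune markers moved with this comparison: the mean of 4 MHC class II markers was 9.70 and 11.27 on the hippocampal GFP arrays against 5.92 to 6.26 on the sham arrays, and that of 4 lymphocyte markers 8.60 and 8.64 against 5.10 to 5.44. Their part in the members' values was not tested. In hippocampus Bace1 read in both directions. Its brightest probe set, 1455826_a_at, stood at 0.27 ± 0.13, with GFP arrays at 9.45 and 9.77 and sham arrays at 9.37, 9.29 and 9.36. Probe set 1421825_at stood at -0.30 ± 0.08 (limma unadjusted p = 0.00195, adjusted p = 0.371, the smallest adjusted p of any member within a region). Psen2 stood at 0.32 ± 0.13 (adjusted p = 0.529), with GFP arrays at 7.48 and 7.87 and sham arrays at 7.49, 7.18 and 7.40. In entorhinal cortex 1 probe set, 1450384_at of Bace1, had an unadjusted p under 0.05 (3.33%, background 2.85%), and the arrays of 5 did not overlap (16.7%, background 19.6%).

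The virus had been placed in the entorhinal cortex, and the arrays of mice given virus carried immune transcripts to very different extents. The mean of 4 MHC class II markers ran from 6.96 to 11.40 on transgenic cortical arrays and from 6.17 to 10.42 on transgenic hippocampal arrays, was 7.77 and 11.29 on the non-transgenic cortical GFP arrays, and ran from 5.92 to 7.19 on the sham arrays. Over the 13 cortical arrays Bace1 correlated with the microglia list at -0.76 and with the MHC class II list at -0.67, and over the 13 hippocampal arrays at 0.08 and 0.22. The -0.76 was the lowest of many such correlations between members and marker lists. In cortex Bace1 also correlated at 0.69 with the dentate granule and hippocampal list and at 0.59 with the cortical list. Cortical transgenic GFP array 4 was the lowest cortical array in Bace1 (9.78) and the highest in microglia (10.08) and MHC class II markers (11.40). These correlations are descriptions over arrays that share groups, and the part of any listed cells in a member's level was not tested.

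Members were called between the regions and in no comparison within a region. Before those values, the control probe sets of the array must be given, because they separate the regions too. The difference between the 3′ and 5′ control probe sets of Actb, which grows as complementary RNA becomes shorter, was 1.79 to 2.11 on cortical and 1.43 to 1.74 on hippocampal arrays, and that of Gapdh was 0.64 to 0.99 and 0.25 to 0.52. The hybridisation controls, spiked at fixed amounts, averaged 10.33 to 10.87 on cortical and 9.07 to 10.11 on hippocampal arrays. None of the 3 measures overlapped between regions, so region and array preparation cannot be told apart. Oligodendrocyte markers also differed, with 6 of 6 lower in entorhinal cortex (median log2 difference -1.70 in non-transgenic and -1.43 in transgenic mice), and the part of any of these in the members' region differences was not tested.

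**Figure D3:**
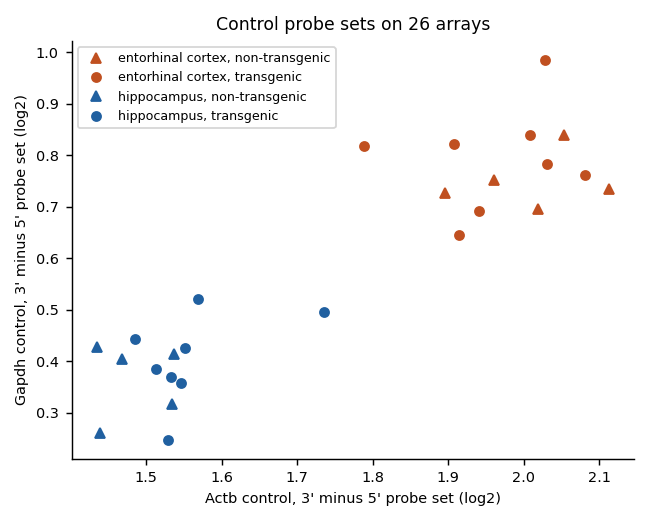
Difference between the 3′ and 5′ control probe sets of Actb (horizontal axis, log2) and Gapdh (vertical axis, log2) on the 26 arrays. Cortical arrays (orange) occupy the upper right, at 1.79 to 2.11 and 0.64 to 0.99, and hippocampal arrays (blue) the lower left, at 1.43 to 1.74 and 0.25 to 0.52, in transgenic (circles) and non-transgenic (triangles) mice alike.

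In non-transgenic mice 9 of 30 member probe sets were called between the regions (30%, limma adjusted p under 0.05), against 23.9% of all probe sets, and in transgenic mice 12 of 30 (40%), against 32.8%. The shares lie near the background in both genotypes. The arrays of 11 did not overlap between regions in non-transgenic mice (36.7%, background 19.6%) and of 5 in transgenic mice (16.7%, background 10.1%). Of the 9, 4 were higher and 5 lower in entorhinal cortex (backgrounds 10.8% and 13.1%), and of the 12, 7 were higher and 5 lower (15.9% and 16.9%). The genotypes share no array here, and 6 probe sets of 4 genes (Aplp1, Bace1, Ncstn and Ide) were called in the same direction in both, which is 66.7% of the non-transgenic and 50% of the transgenic calls. That is 20% of the members, against 19.6% of all probe sets called in the same direction in both genotypes, so this sharing is at the background. The median absolute difference over the members was 0.15 in non-transgenic and 0.16 in transgenic mice, against 0.13 and 0.13 over all probe sets. Without sham array 3 of the hippocampus the non-transgenic count was 4, and without sham array 2 of the hippocampus or GFP array 1 of the entorhinal cortex it was 5. With the Actb or the Gapdh control difference as a covariate the counts were 1 in non-transgenic and 2 in transgenic mice. Ide 1423121_at kept its call in both genotypes with either covariate, and all other member calls were lost with both covariates except that of the dim App 1438374_x_at, kept with Gapdh in transgenic mice. The second transgenic call with the Actb covariate was a gained one, App 1420621_a_at, at 0.44 ± 0.13 (limma adjusted p = 0.0479) against -0.0081 without the covariate.

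**Figure D4:**
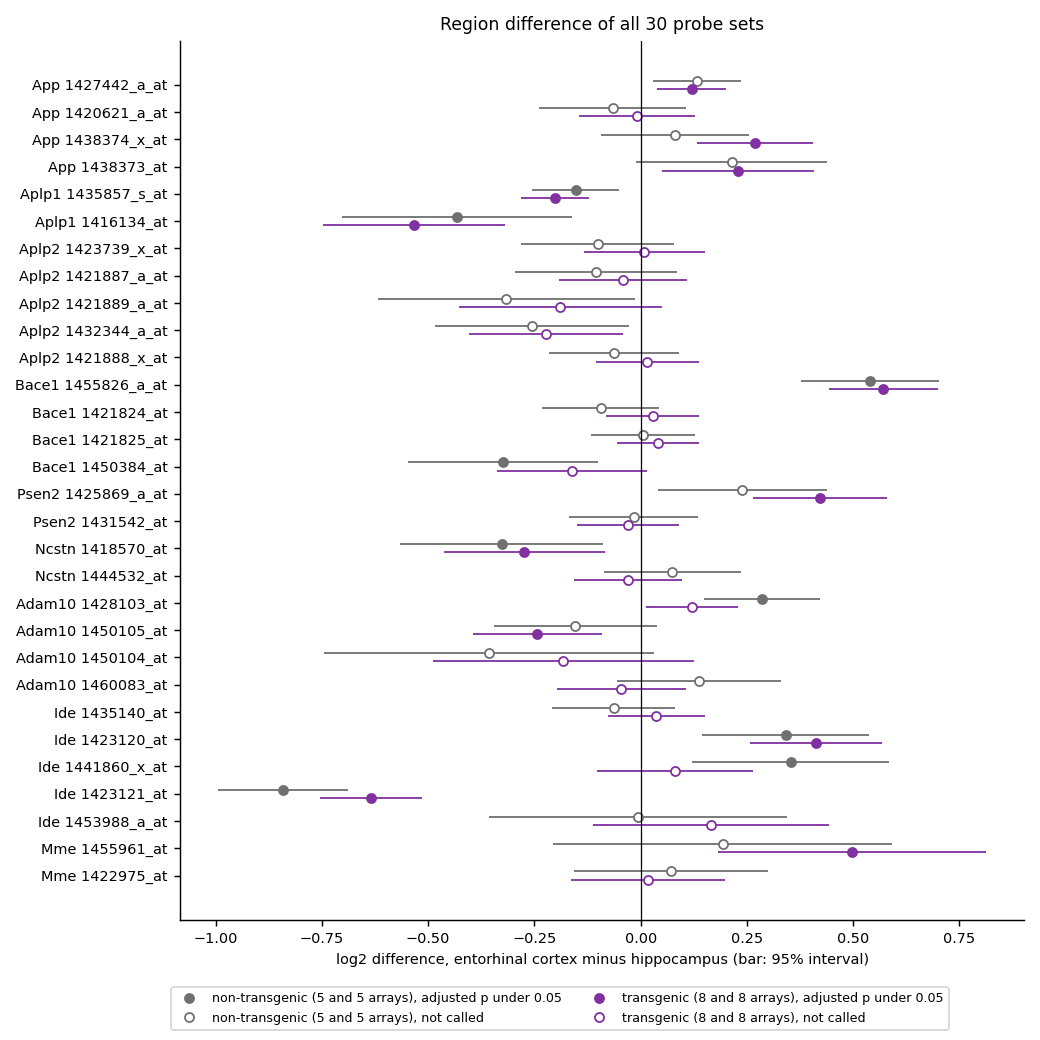
Log2 difference between entorhinal cortex and hippocampus (horizontal axis, bars 95% intervals) for all 30 member probe sets in non-transgenic (grey) and transgenic (purple) mice; filled points have an adjusted p under 0.05. Bace1 1455826_a_at lies farthest to the right among probe sets called in both genotypes and Ide 1423121_at farthest to the left, and probe sets of Ide, Bace1 and Adam10 lie on both sides of 0.

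The precursor family read in both directions. App 1427442_a_at was 13.26 to 13.34 in non-transgenic entorhinal cortex and 13.11 to 13.23 in non-transgenic hippocampus, and 13.25 to 13.36 and 13.03 to 13.25 in transgenic mice, so the regions did not overlap in either genotype, although in transgenic mice they parted only in the decimals beyond those printed. The difference was 0.13 ± 0.05 in non-transgenic (limma adjusted p = 0.0558) and 0.12 ± 0.04 in transgenic mice (adjusted p = 0.0215), about 1.09-fold in the latter. The transgenic call was lost without hippocampal sham array 1, which held choroid plexus transcripts, and hippocampal transgenic GFP arrays 1 and 3, left out together, after a second quantile normalization, and with each control covariate. The other bright App probe set, 1420621_a_at, stood at -0.07 ± 0.08 and -0.01 ± 0.07. The dim pair 1438373_at and 1438374_x_at stood at 0.23 ± 0.09 and 0.27 ± 0.07 in transgenic mice, both called there although dim. The call of 1438373_at held in 18 of 36 settings and was lost without any of several single arrays. That of 1438374_x_at held in 35 of 36.

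Aplp1, a neuronal paralogue of App, was lower in entorhinal cortex on both of its probe sets and in both genotypes. The brighter, 1435857_s_at, was 12.93 to 13.08 in non-transgenic cortex and 13.13 to 13.23 in non-transgenic hippocampus, and 12.88 to 13.02 and 13.05 to 13.21 in transgenic mice, without overlap in either genotype. The difference was -0.15 ± 0.05 (limma adjusted p = 0.0252) and -0.20 ± 0.04 (adjusted p = 0.000299). The other, 1416134_at, stood at -0.43 ± 0.13 (adjusted p = 0.0174) and -0.53 ± 0.10 (adjusted p = 0.000294). In non-transgenic mice the first call was lost without cortical GFP array 1, cortical sham array 3 or hippocampal sham array 2 or 3, and the second without cortical GFP array 1 or hippocampal sham array 3. The highest value of 1416134_at, 12.09, came from hippocampal transgenic GFP array 3, with the other hippocampal arrays of transgenic mice at 11.09 to 11.36. Aplp2, the more widely expressed paralogue, had 0 of 5 probe sets called in either genotype, and its brightest stood at -0.10 ± 0.09 and 0.01 ± 0.07.

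Bace1 showed the largest difference among the brightest probe sets. Probe set 1455826_a_at read 9.94 to 10.06 in non-transgenic entorhinal cortex and 9.29 to 9.77 in non-transgenic hippocampus, and 9.78 to 10.07 and 9.16 to 9.57 in transgenic mice, and the regions did not overlap in either genotype. The difference was 0.54 ± 0.08 (1.45-fold, limma adjusted p = 1.89e-05) and 0.57 ± 0.06 (1.49-fold, adjusted p = 1.89e-07). In the order of the 8 group means, all 4 cortical groups came before all 4 hippocampal groups, and the only neighbours that did not overlap were the lowest cortical group, non-transgenic GFP at 9.96, and the highest hippocampal group, non-transgenic GFP at 9.61. The remaining 3 Bace1 probe sets did not share the difference. Probe sets 1421824_at and 1421825_at stood at -0.09 ± 0.07 and 0.01 ± 0.06 in non-transgenic mice and at 0.03 ± 0.05 and 0.04 ± 0.05 in transgenic mice, and 1450384_at stood at -0.32 ± 0.11 (adjusted p = 0.0302) and -0.16 ± 0.08 (adjusted p = 0.155). The call of 1450384_at was lost without either cortical GFP array or any 1 of the hippocampal sham arrays. With the Actb control difference as a covariate the estimate of 1455826_a_at was 0.44 in non-transgenic and 0.50 in transgenic mice, with neither called. The mean of the 4 Bace1 probe sets differed by 0.03 ± 0.05 in non-transgenic mice (limma adjusted p = 0.713) and 0.12 ± 0.04 in transgenic mice (adjusted p = 0.0256).

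Of the γ-secretase subunits, Ncstn was lower in entorhinal cortex in both genotypes and Psen2 was higher in transgenic mice. Ncstn 1418570_at read 6.25 to 6.62 in non-transgenic cortex and 6.61 to 6.98 in non-transgenic hippocampus, which overlap slightly, with differences of -0.33 ± 0.12 (limma adjusted p = 0.0422) and -0.27 ± 0.09 in transgenic mice (adjusted p = 0.0238). In transgenic mice it read 6.33 to 6.83 in cortex and 6.73 to 7.52 in hippocampus, which also overlap. The transgenic call was lost without cortical transgenic GFP array 2, and without the 3 hippocampal arrays named above for App, left out together. The non-transgenic call was lost without either cortical GFP array, cortical sham array 1 or 3, hippocampal GFP array 1, or hippocampal sham array 2 or 3. It was also lost after a second quantile normalization. The dim Ncstn 1444532_at had means of 4.02 in cortex and 3.94 in hippocampus in non-transgenic mice, and 3.97 and 4.00 in transgenic mice. Psen2 1425869_a_at read 7.67 to 8.07 in transgenic cortex and 7.31 to 7.63 in transgenic hippocampus, without overlap, a difference of 0.42 ± 0.08 (1.34-fold, adjusted p = 0.000132). In non-transgenic mice its difference was 0.24 ± 0.10 (adjusted p = 0.0754), and the genotypes did not differ in it beyond error (0.18 ± 0.12, adjusted p = 0.925). The dimmer Psen2 probe set 1431542_at stood at -0.02 ± 0.07 and -0.03 ± 0.06.

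Adam10, the α-secretase, did not read alike across its probe sets. The brightest, 1428103_at, was 10.71 to 10.79 in non-transgenic cortex and 10.37 to 10.57 in non-transgenic hippocampus, without overlap, a difference of 0.28 ± 0.07 (limma adjusted p = 0.00242). In transgenic mice it was 10.61 to 10.84 and 10.42 to 10.79, which overlap, a difference of 0.12 ± 0.05 (adjusted p = 0.0812). Probe set 1450105_at instead was lower in transgenic cortex, at -0.24 ± 0.07 (limma adjusted p = 0.0133). In non-transgenic mice its means were 9.07 in cortex and 9.23 in hippocampus, not called. Probe set 1450104_at was also lower in cortex, and called in neither genotype. Its means were 7.21 and 7.57 in non-transgenic mice, without overlap (7.10 to 7.38 and 7.40 to 7.67), and 7.20 and 7.38 in transgenic mice. The dimmest, 1460083_at, had means of 4.82 and 4.68 in non-transgenic and 4.64 and 4.68 in transgenic mice. The test of the genotypes' region differences gave -0.16 ± 0.08 for 1428103_at (adjusted p = 0.895).

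The amyloid-degrading proteases showed the sharpest disagreement within a gene. Ide 1423121_at was lower in entorhinal cortex, with 6.09 and 5.68 (GFP) and 5.99, 6.01 and 6.16 (sham) in non-transgenic cortex and 6.81, 6.53, 6.87, 7.06 and 6.87 in the corresponding hippocampal arrays. In transgenic mice it ran from 6.07 over a median of 6.15 to 6.28 in cortex and from 6.71 over a median of 6.81 to 6.88 in hippocampus. The regions did not overlap in either genotype, and the difference was -0.84 ± 0.07 (limma adjusted p = 1.52e-08) and -0.63 ± 0.06 (adjusted p = 1.39e-08), the smallest adjusted p of any member in both. It was the only member probe set called in both genotypes under every alternative that kept it as a separate probe set, while the mean of the 5 Ide probe sets was not called in either.

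Ide 1423120_at, which the platform annotation derives from the same complementary DNA as 1423121_at, was higher in entorhinal cortex. It read 8.93 to 9.11 in non-transgenic cortex against 8.52 to 8.78 in hippocampus and 8.66 to 9.18 against 8.36 to 8.80 in transgenic mice, with differences of 0.34 ± 0.09 (limma adjusted p = 0.00988) and 0.41 ± 0.07 (adjusted p = 0.00015). Probe set 1441860_x_at stood at 0.35 ± 0.11 in non-transgenic mice (adjusted p = 0.0236) and 0.08 ± 0.09 in transgenic mice. Its call was lost without cortical sham array 2 or 3 or any 1 of the hippocampal sham arrays. The brightest Ide probe set, 1435140_at, stood at -0.06 ± 0.07 and 0.04 ± 0.06. Called probe sets of opposite sign within 1 gene occurred in 276 of the 1948 genes with 2 or more called probe sets in non-transgenic mice (14.2%) and in 640 of 2763 in transgenic mice (23.2%). Among the members this held for Bace1 and Ide in non-transgenic mice, of 3 with 2 or more called probe sets, and for Ide in transgenic mice, of 3. The direction of Ide between regions therefore depends on the probe set.

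**Figure D5:**
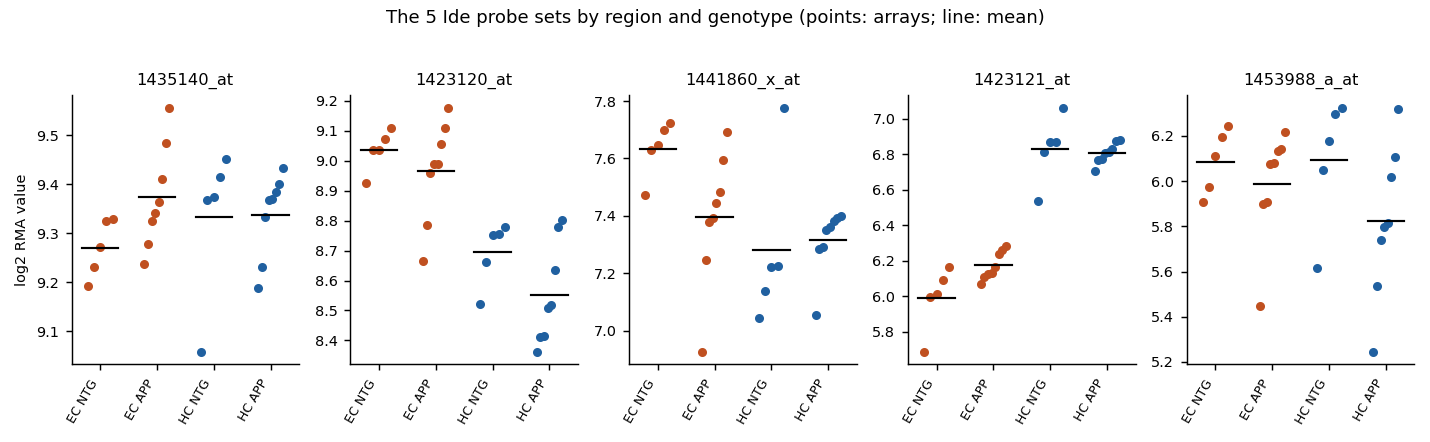
Log2 RMA value (vertical axis, own scale in each panel) of the 5 Ide probe sets in entorhinal cortex (EC, orange) and hippocampus (HC, blue) of non-transgenic (NTG) and transgenic (APP) mice; points are arrays and lines means. Probe set 1423121_at lies lower on every cortical array than on every hippocampal array, 1423120_at lies higher on most, and 1435140_at overlaps between regions in both genotypes.

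Mme 1455961_at was higher in transgenic entorhinal cortex (6.51 to 7.64) than in transgenic hippocampus (6.47 to 6.95), by 0.50 ± 0.15 (1.41-fold, limma adjusted p = 0.0145), with overlapping arrays. With the Actb control difference as a covariate the estimate was 0.77 and was not called. In non-transgenic mice the difference was 0.19 ± 0.19 (adjusted p = 0.534), with cortical arrays at 5.85 to 7.23. The difference between genotypes in this region effect was 0.30 ± 0.25 (adjusted p = 0.934). Over all 30 probe sets 0 were called in that interaction, with 0% of all probe sets called, and 1 had an unadjusted p under 0.05 (3.33%, background 5.52%).

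The rest of the amyloid pathway was described from a list of 49 further genes, of which 45 had a probe set with a single symbol. Each gene was read by its brightest probe set. The backgrounds cover all probe sets, including dim ones and repeats of a gene, so the 2 sets are unlike. A share over brightest probe sets alone is not given here, so no excess over background can be read from these counts. Within a region 0 of 45 were called in any comparison of BDNF with GFP, of the genotypes or of GFP with sham (limma). The background in these comparisons was 0% to 0.0266% of all probe sets. In each, 0 to 2 of the 45 had an unadjusted limma p under 0.05, against 2.57% to 8.64% of all probe sets. Between regions 1 was higher (2.22%, background 10.8%) and 14 lower (31.1%, background 13.1%) in non-transgenic entorhinal cortex. In transgenic mice 6 were higher (13.3%, background 15.9%) and 12 lower (26.7%, background 16.9%), with median differences of -0.08 and -0.08 against 0.01 and 0.00 over all probe sets. In both genotypes 12 of 45 were called in the same direction (26.7%, background 19.6%), 1 higher (2.22%, background 8.58%) and 11 lower (24.4%, background 11%). Aph1b, a γ-secretase subunit, was the one that was higher, by 0.48 ± 0.11 in non-transgenic and 0.64 ± 0.09 in transgenic mice. Among those lower, A2m, a circulating protease inhibitor that binds amyloid-β, stood at -0.78 ± 0.25 and -0.74 ± 0.19, Mapk8ip1, a scaffold that binds the cytoplasmic tail of APP, at -0.71 ± 0.16 and -0.79 ± 0.12, and Bin1, a membrane-bending adaptor that oligodendrocytes also express, at -0.61 ± 0.09 and -0.57 ± 0.07. The other 8 lay between -0.17 and -0.44 in non-transgenic mice. The oligodendrocyte markers given above moved the same way, and their part in these differences was not tested.

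The genes whose brightest probe set varied most like that of App and of Bace1 were found by the mean of the correlations over the 13 cortical and the 13 hippocampal arrays, among 14939 genes. For App they were Hoxb5os (mean r 0.81), Stra8 (0.77), Tas1r2 (0.73), Dusp9 (0.71) and Mapre2 (0.71). For Bace1 they were Kif5b (0.76), Tmem184c (0.74), Map4 (0.73), Slitrk4 (0.73) and Dop1a (0.70). These are the highest of very many values over few arrays that share their groups, and are given as a description. Among the members, App and Aplp1 correlated at 0.52 in entorhinal cortex and 0.39 in hippocampus, Bace1 and Psen2 at -0.13 and 0.78, and Aplp1 and Psen2 at -0.90 and -0.41.

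Probe sets of a gene did not always vary together within a region. The 2 bright probe sets of App correlated at 0.68 over the cortical and 0.62 over the hippocampal arrays, and those of Aplp1 at 0.80 and 0.63. Over the hippocampal arrays 3 of the other 4 Aplp2 probe sets correlated with the brightest at 0.95 or more, and hippocampal transgenic GFP arrays 1 and 3 held the ends of its range (10.84 and 11.60). Ide 1441860_x_at correlated with the brightest Ide probe set at -0.71 and -0.83. Adam10 1450104_at read 6.89, 6.39 and 6.44 on 3 transgenic arrays, array 1 of the cortical BDNF, cortical GFP and hippocampal GFP groups, with the rest of those groups at 7.26 or above.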

How the data were processed

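Tissue was dissected and snap-frozen, and biotin-labelled complementary RNA was hybridised to 1-colour Affymetrix mouse arrays, per the labels' protocols. The authors deposited 1 table of log2 values made with RMA, per the submitters' processing notes; neither its version nor any build is named in the sources used here. RMA forces arrays to a common distribution (medians 5.51 to 5.58), so a shift of the whole distribution is removed, and differences of dim probe sets are compressed. The number of arrays limits the precision.

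After 64 control probe sets were left out of 45101, limma 3.58.1 in R 4.3.3 (lmFit, eBayes) was fitted to 45037 probe sets, per region (13 arrays, 4 groups) or, for region comparisons, on all 26 arrays and 8 groups. Tests were 2-sided, and a Benjamini-Hochberg adjusted p under 0.05 was called. The scripts were tested on simulated data. Symbols came from the platform annotation; 34945 probe sets had 1 symbol, 932 several and 9160 none, and 34741 were updated through a RefSeq table of GRCm38.p6. Every member probe set is counted; the one with the highest mean is described in full. Of 30, 26 passed the 30th percentile of means (4.33). Other pathway genes were named if called within a region, and between regions as up to 3 per direction called in both genotypes. The alternatives are a filter on dim probe sets, 1 probe set per gene or their mean, a second quantile normalization, median centring, trended and robust eBayes, weighted arrays, 1 fit over both regions, an Xist covariate, a replicate block and leaving out each array; leaving out arrays that stand apart and the 2 control covariates were added after seeing the data. The members and lists were chosen with earlier results of these data known. No protein sequence was used here, and p-values measure the spread between these arrays.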

Additional observations from a re-analysis of the deposited data

Results flagged for a closer look

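Within groups of 4 arrays, 120 combinations of probe set and group were examined for a single array far from the other 3, and 10 were found. The cut-off gives about 1 in 20 by chance for a single combination. These combinations share arrays and genes, and the share over all probe sets is not given here. No excess of such arrays among the members can therefore be read from the count. For Bace1 1455826_a_at, cortical transgenic GFP array 4 read 9.78 with the others at 10.02 to 10.05, and hippocampal transgenic BDNF array 3 read 9.57 with the others at 9.35 to 9.36. For Ncstn 1418570_at, hippocampal transgenic GFP array 3 read 7.52 with the others at 6.80 to 6.89. Adam10 1450104_at was far below the rest of its group on cortical BDNF array 1 (6.89), cortical transgenic GFP array 1 (6.39) and hippocampal transgenic GFP array 1 (6.44), and Adam10 1460083_at read 4.57 on hippocampal BDNF array 4 with the others at 4.74 to 4.76. Ide 1453988_a_at read 5.45 on cortical transgenic GFP array 1 with the others at 6.08 to 6.13. The dim Mme 1422975_at read 3.52 on cortical BDNF array 3 with the others at 4.05 to 4.13, and Aplp2 1421888_x_at read 7.86 on hippocampal BDNF array 4 with the others at 7.83.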

How the results depend on the processing

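The counts of 0 called member probe sets within a region, and in both interactions, stayed at 0 under every alternative run. The region count of 9 in non-transgenic mice became 5 with 1 probe set per gene (fewer probe sets tested) and 1 with the Actb or the Gapdh control covariate, and ran from 4 to 11 when single arrays were left out; it was 4 without hippocampal sham array 3 and 5 without hippocampal sham array 2 or cortical non-transgenic GFP array 1. The count of 12 in transgenic mice became 6 with 1 probe set per gene and 2 with either covariate, and ran from 11 to 16 without single arrays. The cause of the covariate results was not tested; since the control difference is separated by region, that fit has little to tell them apart. The mean of the Adam10 probe sets gave -0.0219 in non-transgenic mice, against 0.28 for the brightest. The same mean gave 0.03 for Bace1 in non-transgenic and 0.12 in transgenic mice, against 0.54 and 0.57. Taking means ended the non-transgenic calls of Bace1, Ncstn and Adam10. Of 108 differences of the brightest probe sets 10 were called; 9 of these kept their sign under every alternative and 0 were called under all. Of the 98 not called, 61 changed sign under at least 1 alternative and 3 were called under at least 1.

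The replicate block changed no call count beyond the range given, with 9 and 12 called between regions. Of 13 same-numbered pairs across regions, 3 had a correlation of deviations over 0.1 (range -0.41 to 0.44), and 3 correlated best with their own number. Both non-transgenic GFP pairs hold the same 0.44, because deviations from a mean of 2 arrays mirror each other. These counts therefore cannot settle whether the numbers pair the samples. Xist was unlike between regions on transgenic GFP arrays 1 to 4 (array 1: 5.45 in cortex, 11.01 in hippocampus). It was also unlike on BDNF arrays 2 and 4, and alike on BDNF arrays 1 and 3. Same-numbered transgenic arrays thus often differed in sex.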
